A study of Mus musculus with 6 samples.

Results

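The genes described here encode the enzymes that make catecholamines and the enzymes that make and recycle tetrahydrobiopterin (BH4), the pterin cofactor of tyrosine hydroxylase. The 9 members, Th, Ddc, Dbh, Pnmt, Gch1, Pts, Spr, Qdpr and Pcbd1, were taken by symbol from the 55536 genes of the count files, as a pathway chosen with earlier results of these data known; the rule itself uses no measured value. They were followed in CAD cells, a catecholaminergic neuronal line from the mouse brain, labelled as male, of C57BL/6 x DBA/2 background and transformed with simian virus 40. CAD cells are a variant of a line from a brain tumour of a mouse in which a Th promoter drove the viral T antigen, so all values come from 1 tumour-derived line. Undifferentiated, proliferating cells (3 libraries) were in medium with 8% serum. Differentiated cells (3 libraries) had received 100 µM dexamethasone, a synthetic glucocorticoid, for 5 days in medium with 1% serum. Effects of the steroid and of the serum cannot be told apart, because both were changed at once.

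Catecholamines are made from tyrosine in a chain of reactions. Tyrosine hydroxylase (Th) makes L-DOPA in the rate-limiting step, aromatic L-amino acid decarboxylase (Ddc) makes dopamine, dopamine beta-hydroxylase (Dbh) makes noradrenaline inside vesicles, and phenylethanolamine N-methyltransferase (Pnmt) makes adrenaline. BH4 is made from GTP by GTP cyclohydrolase I (Gch1), 6-pyruvoyltetrahydropterin synthase (Pts) and sepiapterin reductase (Spr). After each hydroxylation the oxidised cofactor is returned to BH4 by pterin-4a-carbinolamine dehydratase (Pcbd1) and quinoid dihydropteridine reductase (Qdpr).

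The enzymes did not move together. Dbh and Ddc fell in differentiated cells, 13.2-fold and 7.28-fold, while Th rose 2.09-fold and Gch1 2.80-fold. Both recycling enzymes rose, Qdpr 1.58-fold and Pcbd1 1.22-fold, Spr fell 1.58-fold and Pts was not called. Pnmt had no read in undifferentiated and 7 reads in differentiated cells, too few to be tested. Of the 8 tested members 7 (87.5%) were called, by the quasi-likelihood test of edgeR with Benjamini-Hochberg adjustment and a threshold of 0.05, beside 78.9% of all 12664 genes tested, so the number of called members was close to the background. The directions were split, with 4 members higher (40.3% of all genes were) and 3 lower (38.6% of all genes). Called changes reached 2-fold for 2 members in each direction, 4 of 8 in all, beside 30.0% of all genes (17.8% higher and 12.2% lower). The groups did not overlap for 6 of the 8, beside 79.9% of all genes; 3 of the 6 were higher, beside 41.0%, and 3 lower, beside 38.9%. The median log2 fold change of the tested members was 0.07 and that of all genes 0.02.

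The libraries held 6411105 to 8757992 counted reads, at which 3 reads correspond to 0.343 to 0.468 CPM (counts scaled to a common library size). Across genes, log2 CPM values of libraries correlated with a Pearson's r of 0.9915 to 0.9932 within groups and 0.8575 to 0.8634 between them. Differentiated library 1 lay farther from the other two of its group than they did from each other, with a chi-square per degree of freedom over gene counts of 3.18 and 3.19 against 1.65 (undifferentiated pairs 1.76 to 2.10). Without it, the 8 tested members kept their direction and call, with log2 fold changes of 1.14 for Th, -3.20 for Ddc, -3.70 for Dbh, 1.52 for Gch1, -0.24 for Pts, -0.64 for Spr, 0.64 for Qdpr and 0.29 for Pcbd1. The labels do not say whether the libraries of a group came from separate cultures, so p-values measure the spread between these libraries, which may be technical. In bulk RNA a smaller share of expressing cells and less RNA per cell cannot be told apart. All 9 tested neuronal markers were called, beside 78.9% of all genes, 6 higher and 3 lower. Among the higher ones was Snap25, a protein of vesicle fusion, at 85.3 ± 4.08 and 214 ± 8.79 CPM (SD, n = 3) in undifferentiated and differentiated cells. The 3 lower ones were Tubb3, Elavl3 and Elavl4, with log2 fold changes of -0.32, -0.64 and -0.41. The sympathetic transcription factor gene Hand2 was at 1135 ± 29.3 CPM (SD, n = 3) in undifferentiated cells, whereas Slc6a2, the noradrenaline transporter gene, had no read in any library. Of the 10 noradrenergic markers looked at, 6 were tested, of which 2 rose and 3 fell (83.3% called, beside 78.9% of all genes). The summed level of 5 adrenocortical markers was 3.08 to 3.82 CPM in undifferentiated and 1.44 to 1.64 CPM in differentiated libraries, all of it from 1 gene, with the other 4 at 0. The 5 microglial and blood markers summed to at most 0.565 CPM in a library and 4 astrocyte markers to at most 1.27 CPM. For 5 fibroblast markers the sums were 10.1 to 13.7 and 18.3 to 20.3 CPM, with Dcn at 8.30 and 17.6 CPM on average, the collagen gene Col1a1 at 2.00 and 1.27 CPM and the other 3 under 1 CPM in both groups. The sums were, for 4 endothelial markers, 18.3 to 21.3 and 33.4 to 35.7 CPM, nearly all from Pecam1 (19.5 and 33.1 CPM on average), and for 4 oligodendrocyte markers 2.97 to 4.22 and 2.53 to 4.25 CPM. The part of these markers in the results below was not tested.

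Promoter sequences of RefSeq (build GRCm38.p6) were found for 8 of the 9 members, in 9 windows, 2 of them for Ddc. Pnmt had none. The 250 bases before the start site are shown for the members with the largest rises, Th and Gch1, and for Ddc, which fell, because they let the letters of the cAMP response element (CRE), known from the Th promoter, be set beside members that moved differently. They are given 5′ to 3′ on the strand of the gene, and capitals mark every match to a searched motif on either strand. The Th window is chr7:142899996-142900245, minus strand, the Gch1 window chr14:47189414-47189663, minus strand, and the Ddc window chr11:11890409-11890658, minus strand, before the downstream of its 2 RefSeq starts in the table.
Th: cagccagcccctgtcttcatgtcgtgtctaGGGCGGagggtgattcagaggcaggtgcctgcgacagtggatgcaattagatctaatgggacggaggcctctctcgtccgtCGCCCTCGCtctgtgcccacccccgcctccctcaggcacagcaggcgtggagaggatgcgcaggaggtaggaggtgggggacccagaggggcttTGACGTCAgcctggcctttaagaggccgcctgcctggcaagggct
Gch1: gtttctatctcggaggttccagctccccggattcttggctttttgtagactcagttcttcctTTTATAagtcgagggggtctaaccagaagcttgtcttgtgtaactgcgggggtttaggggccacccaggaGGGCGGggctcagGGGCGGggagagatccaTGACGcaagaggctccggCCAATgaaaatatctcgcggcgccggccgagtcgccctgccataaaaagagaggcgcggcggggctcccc
Ddc: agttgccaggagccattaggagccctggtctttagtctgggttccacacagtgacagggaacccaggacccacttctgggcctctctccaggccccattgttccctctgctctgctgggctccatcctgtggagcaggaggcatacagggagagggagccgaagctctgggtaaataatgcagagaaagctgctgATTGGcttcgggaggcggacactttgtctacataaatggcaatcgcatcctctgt

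The Th window held the full palindromic CRE, TGACGTCA, from position -45 to -38 before the start site, counted so that -1 is the last base before it. Of the Th window 19 bases lie in an annotated exon. That motif occurred in 1.79% of the 32851 mouse promoters in the table. Gch1 held the shorter CRE motif TGACG from -88 to -84, which 20.8% of promoters hold, and CCAAT from -70 to -66, which 37.4% hold. The Ddc window held CCAAT, on the opposite strand, from -55 to -51. Dbh also held TGACG, on the opposite strand, from -222 to -218, and CCAAT was in Dbh and Qdpr too. Of the motifs known for the glucocorticoid receptor, the short AGAACA (19.0% of promoters) was matched only in the Qdpr window, on the opposite strand, from 24 to 29 after the start. The longer palindromic element with spacer (0.475% of promoters) was in none of the 9 windows of these 8 members. Pnmt, without a window, was not searched, nor were sites outside the windows. The other motifs were the EGR site GCGNGGGCG (5.55% of promoters, in Th, Pts and Pcbd1), TATAAA (13.6%, in Gch1, Pcbd1 and the upstream Ddc window), and GGGCGG (35.7%, in Th, Gch1, Pts, Spr, Qdpr and Pcbd1). All were searched on both strands over 250 bases before and 50 after each start. The TGACG matches within the Th CRE overlap it, and the EGR sites of Pts and Pcbd1 share bases with a GC box. GC content of the windows ran from 41.3% for the upstream Ddc window to 64.3% for Th, with a median of 52.7% over all promoters. A match describes these letters and says nothing about a factor, and the window for Dbh is not shown because it lies inside the first exon of the annotation used for counting.

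Th, the rate-limiting enzyme (ENSMUSG00000000214, chromosome 7, 142892752 to 142931128 in GRCm38, minus strand), was read 35, 30 and 31 times in undifferentiated and 78, 98 and 62 times in differentiated libraries 1 to 3. Scaled to library size this was 4.95, 3.82 and 5.03 CPM in undifferentiated and 8.64, 10.7 and 9.23 CPM in differentiated cells. Every differentiated library lay above every undifferentiated one, and the log2 fold change was 1.06 ± 0.185 (SE; 95% interval 0.68 to 1.44, edgeR adjusted p = 9.5e-06). This gene is annotated with 6 transcripts, of which the longest reach over 30 kb upstream of the principal start, and the counts do not tell them apart.

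Ddc, the decarboxylase (ENSMUSG00000020182, chromosome 11, 11814101 to 11898144, minus strand), was read 24, 29 and 23 times in undifferentiated and 6, 4 and 2 times in differentiated libraries. The levels were 3.39, 3.70 and 3.73 CPM against 0.664, 0.436 and 0.298 CPM. The groups were far apart, although the lower level rests on 12 reads in all. The log2 fold change was -2.86 ± 0.361 (SE; 95% interval -3.61 to -2.12, edgeR adjusted p = 5.22e-08), the widest interval of the members. An antisense gene, 1700042O10Rik, overlaps Ddc over 17199 bases and had 21 and 9 reads in undifferentiated and differentiated cells. Counting used strand, so these reads are separate from those of Ddc.

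Dbh, the vesicular hydroxylase (ENSMUSG00000000889, chromosome 2, 27165233 to 27183200, plus strand), was the most abundant of the catecholamine enzymes before differentiation. It stood at 167, 161 and 166 CPM in undifferentiated and at 12.2, 12.9 and 12.4 CPM in differentiated libraries. The spread within each group was small beside the gap, with SDs of 3.07 and 0.354 CPM (n = 3). The log2 fold change of -3.72 ± 0.074 (SE; 95% interval -3.87 to -3.57, edgeR adjusted p = 5.49e-25) was exceeded downwards by only 1.03% of all genes tested. For Ddc that share was 1.98%. On the other side, 10.4% of genes rose more than Gch1 and 16.7% more than Th.

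Pnmt, which makes adrenaline and is known as a glucocorticoid-responsive gene of adrenal chromaffin cells (ENSMUSG00000038216, chromosome 11, 98386450 to 98388181, plus strand), had 0 reads in each undifferentiated library and 2, 2 and 3 reads in differentiated libraries 1, 2 and 3. Over the group this was 0.293 CPM, 2.15 times a floor of 3 reads over the undifferentiated group, which is 0.136 CPM. That ratio leaves out the counting error of the 7 reads and is not a lower bound of the rise. The exact 95% binomial interval for the share of Pnmt reads that came from differentiated cells was 59.0% to 100%, where 52.0% of all counted reads came from them. This covers counting error only. Without a filter on low counts the gene was called higher (edgeR adjusted p = 0.0385), a call that rests on 7 reads. At that setting 46.1% of 23260 genes were called in either direction.

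**Figure D1:**
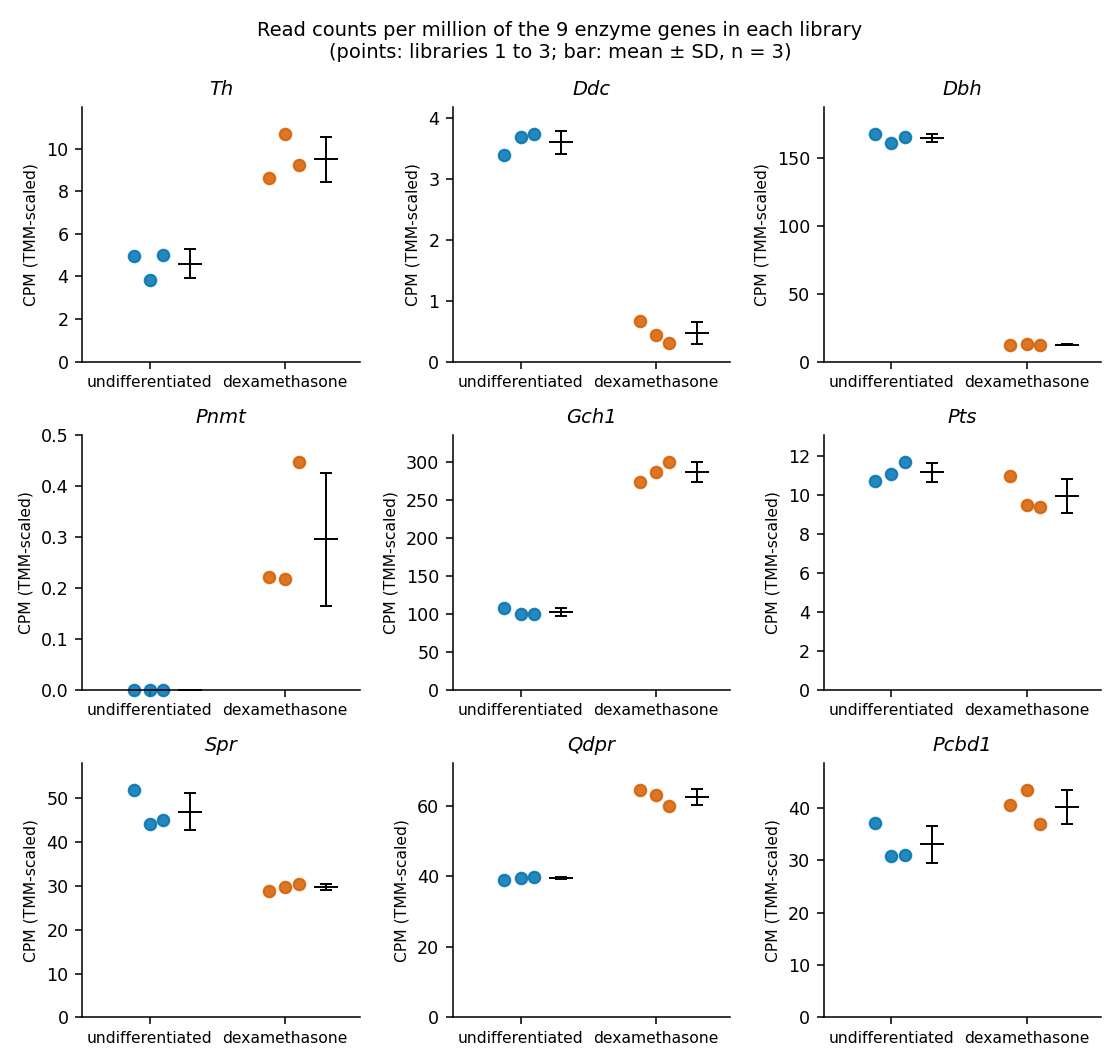
TMM-scaled CPM (vertical axes from 0, a scale for each gene) of the 9 enzyme genes in undifferentiated (blue) and dexamethasone-differentiated (orange) libraries; points are libraries 1 to 3 and black bars the mean ± SD (n = 3). Dbh dropped from at least 161 CPM to at most 12.9 CPM and Gch1 rose from at most 108 CPM to at least 274 CPM, while the groups overlap for Pts and Pcbd1.

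Gch1, which starts BH4 synthesis and sets its rate (ENSMUSG00000037580, chromosome 14, 47153895 to 47189413, minus strand), stood at 108, 99.3 and 100.0 CPM in undifferentiated and at 274, 288 and 300.1 CPM in differentiated libraries. The groups did not overlap, and the log2 fold change was 1.49 ± 0.056 (SE; 95% interval of the fold 2.59 to 3.03, edgeR adjusted p = 4.53e-19). Its reads, 2161 in undifferentiated and 7133 in differentiated cells, make it the most deeply counted of the members after differentiation.

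Pts, the next enzyme (ENSMUSG00000032067, chromosome 9, 50521617 to 50528724, minus strand), stood at 10.7, 11.1 and 11.7 CPM against 10.96, 9.48 and 9.38 CPM. The highest differentiated library lay within the undifferentiated range. The log2 fold change was -0.16 ± 0.145 (SE; edgeR adjusted p = 0.312), and its 95% interval of -0.46 to 0.14 leaves out a change of the size seen for Gch1 or Spr.

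Spr, the last enzyme of BH4 synthesis (ENSMUSG00000033735, chromosome 6, 85130176 to 85137766, minus strand), stood at 51.7, 44.0 and 45.0 CPM in undifferentiated and at 28.9, 29.8 and 30.4 CPM in differentiated libraries. All differentiated libraries were lower, with a log2 fold change of -0.66 ± 0.084 (SE; 95% interval -0.83 to -0.49, edgeR adjusted p = 5.87e-08). A pseudogene of Spr, Spr-ps1, lies 14.9 kb away on the other strand and had 37 and 32 reads, so reads common to both copies may have been left uncounted and the value of Spr is uncertain to that extent. The enzymes of BH4 synthesis thus moved in different directions, 1 higher, 1 lower and 1 not called.

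Qdpr, the reductase that regenerates BH4 (ENSMUSG00000015806, chromosome 5, 45434021 to 45450236, minus strand), stood at 39.2, 39.6 and 39.9 CPM in undifferentiated and at 64.4, 63.1 and 60.01 CPM in differentiated libraries. The groups did not overlap, and the log2 fold change was 0.66 ± 0.071 (SE; 95% interval 0.52 to 0.81, edgeR adjusted p = 2.63e-09). An antisense gene, Gm42413, overlaps 15750 bases of Qdpr and had 1 and 7 reads. Pcbd1, the dehydratase, which is also known as a dimerization cofactor of the transcription factor HNF1 (ENSMUSG00000020098, chromosome 10, 61089331 to 61094324, plus strand), stood at 37.0, 30.8 and 31.0 CPM against 40.4, 43.3 and 36.8 CPM. Undifferentiated library 1 lay just above the lowest differentiated library, so the groups overlapped. Pcbd1 was called with the smallest change of the called members, a log2 fold change of 0.29 ± 0.089 (SE; 95% interval 0.11 to 0.48, edgeR adjusted p = 0.00441).

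**Figure D2:**
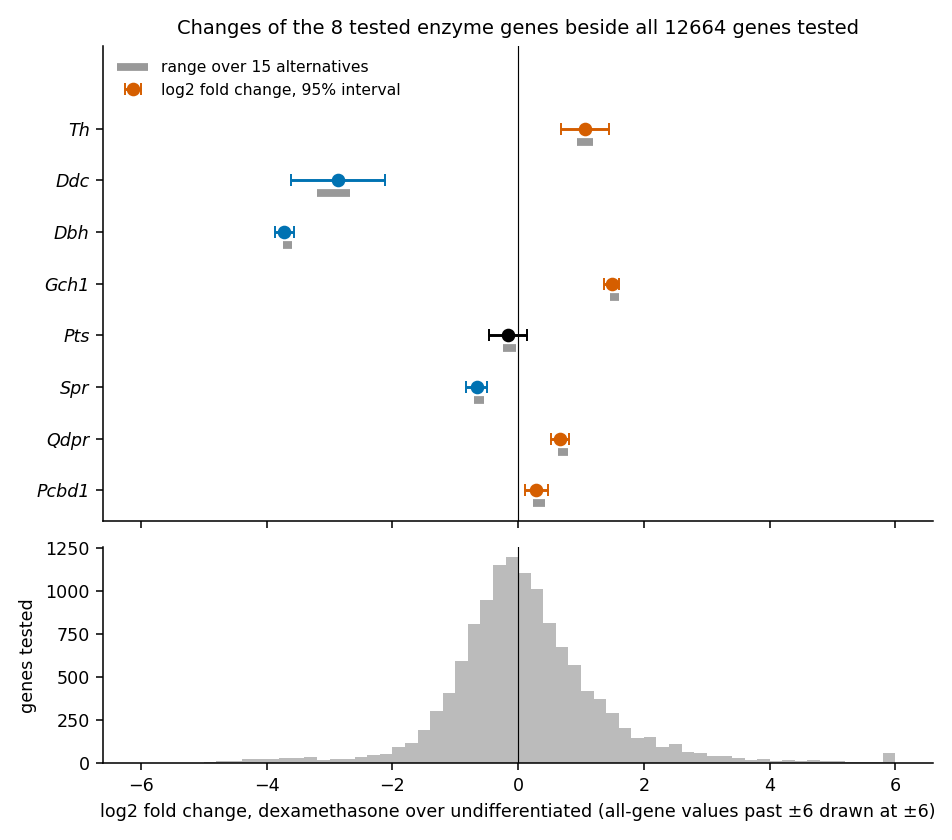
Upper panel, log2 fold change of dexamethasone-differentiated over undifferentiated cells for the 8 tested members, with 95% intervals (horizontal bars; orange higher, blue lower, black not called) and, in grey, the range over 15 alternative settings; lower panel, the distribution over all 12664 genes tested, with values past ±6 drawn at ±6. Dbh at -3.72 and Ddc at -2.86 lie in the lower tail of all genes, and the interval of Pts alone includes 0.

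Levels of different genes were compared per length, as TMM-scaled CPM per kilobase of merged exons (RPKM). In undifferentiated cells the order was Dbh at 61.2 ± 1.14, Pcbd1 at 40.3 ± 4.31, Qdpr at 22.1 ± 0.222, Gch1 at 16.4 ± 0.798, Spr at 13.2 ± 1.19, Th at 1.95 ± 0.285, Pts at 1.83 ± 0.0785 and Ddc at 0.809 ± 0.042 RPKM (SD, n = 3). Only the neighbours Th and Pts had overlapping library ranges. In differentiated cells the order was Pcbd1 at 49.2 ± 3.98, Gch1 at 46.0 ± 2.06, Qdpr at 35.0 ± 1.27, Spr at 8.37 ± 0.209, Dbh at 4.63 ± 0.132, Th at 4.03 ± 0.445, Pts at 1.63 ± 0.145, Pnmt at 0.256 ± 0.114 and Ddc at 0.104 ± 0.0415 RPKM (SD, n = 3). There the neighbours with overlapping ranges were Pcbd1 and Gch1, the ranges of Dbh and Th nearly met at 4.52 RPKM, and the order of Pnmt and Ddc rests on 7 and 12 reads. Dbh thus went from above 92.6% of all genes tested to above 37.5%, and Gch1 from above 71.8% to above 91.9%. Th stood above 22.02% of genes tested in undifferentiated and above 33.7% in differentiated cells. The order depends on the length used. With the length of the principal transcript in place of merged exons, 10 of the 18 positions in the 2 orders were the same, Gch1 came first in differentiated cells at 104 RPKM, Pts rose to 10.7 and 9.51 RPKM in undifferentiated and differentiated cells, and Th at 5.20 RPKM lay above Dbh at 4.89 RPKM after differentiation.

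**Figure D3:**
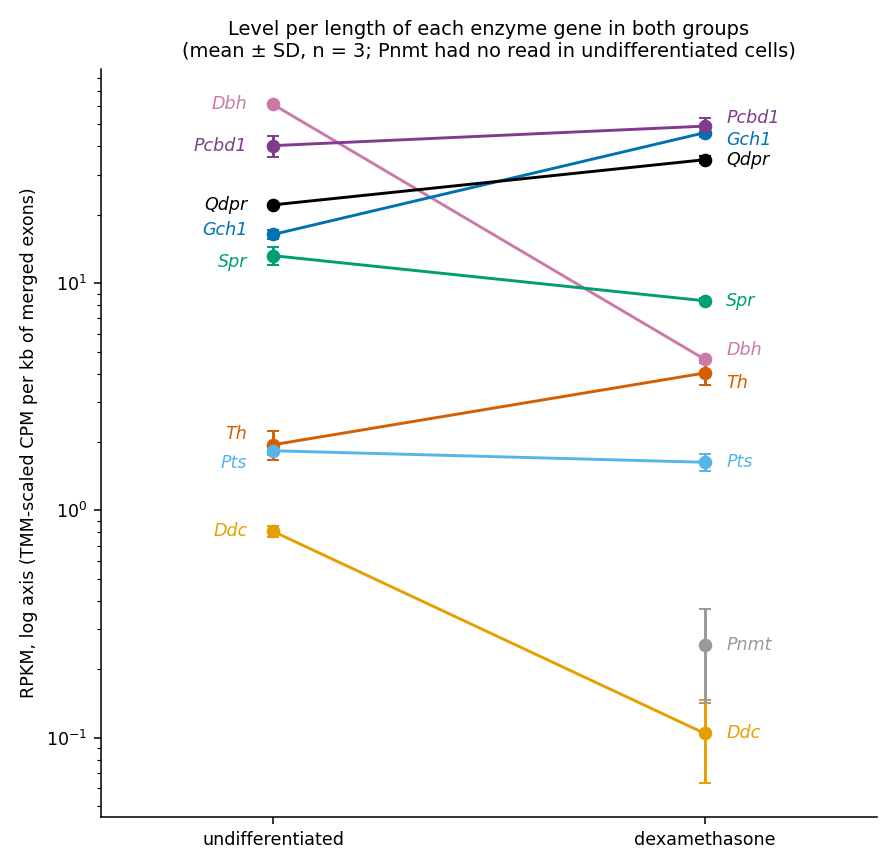
RPKM (log axis; mean ± SD, n = 3) of each enzyme gene in undifferentiated (left) and dexamethasone-differentiated cells (right), joined by a line for each gene. The line of Dbh crosses those of Pcbd1, Qdpr, Gch1 and Spr on its way from 61.2 to 4.63 RPKM and ends beside Th, and Pnmt, with no read in undifferentiated cells, is drawn on the right only.

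By merged exons, the members' summed RPKM was 152 to 166 in undifferentiated and 146 to 154 in differentiated libraries. By that length the sum hardly moved while its makeup did. The sum and the shares depend on the length used, as the order does. The 4 catecholamine enzymes held 39.2% to 41.5% of the sum in undifferentiated and 5.76% to 6.23% in differentiated libraries. In undifferentiated libraries nearly all of this was Dbh, alone at 37.5% to 39.6%, and in differentiated libraries Dbh held 3.06% to 3.15%. Th went the other way, from 1.06% to 1.37% before to 2.47% to 2.94% after differentiation. The BH4 enzymes summed to 90.03 to 101 RPKM before and 137 to 144 RPKM after differentiation. Within a library, Dbh was 29.7, 37.1 and 28.9 times the level of Th in undifferentiated and 1.24, 1.06 and 1.18 times in differentiated cells. The log2 ratio of Dbh to Th went from 4.99 ± 0.20 to 0.21 ± 0.12 (SD, n = 3), a difference of -4.78. Ddc was 0.363, 0.512 and 0.393 times the level of Th in undifferentiated and 0.0408, 0.0216 and 0.0171 times in differentiated libraries. The log2 ratio of Gch1 to Th moved little, from 3.08 ± 0.20 to 3.52 ± 0.15 (SD, n = 3), with the differentiated libraries all above the undifferentiated ones. These ratios do not depend on library scaling and are given without a test. Their levels, though not their differences between groups, depend on the length used. By principal transcript length Th, at 5.20 RPKM, lay above Dbh, at 4.89 RPKM, in differentiated cells. The groups did not overlap in any of the 3, as was so for 79.9% of all single genes tested, and no such share was obtained for ratios. For Gch1 to Th the gap was narrow, with log2 ratios of up to 3.30 in undifferentiated and from 3.35 in differentiated libraries.

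**Figure D4:**
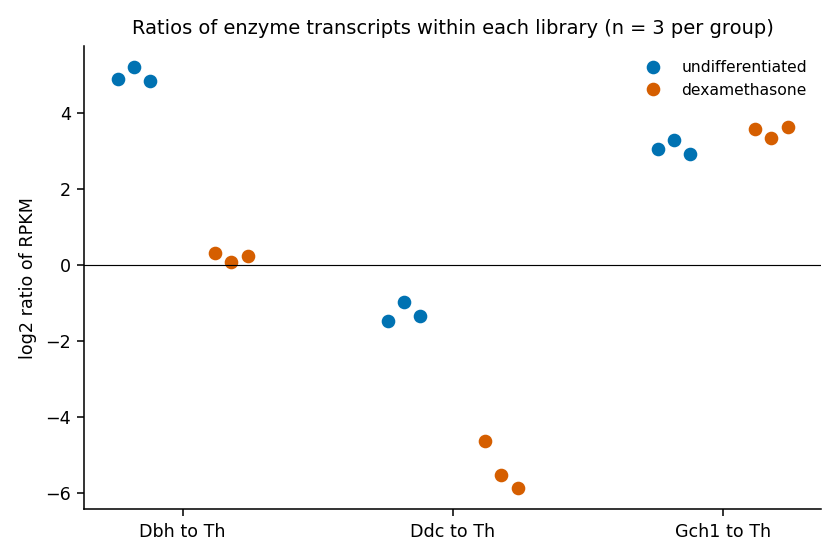
log2 ratio of RPKM of Dbh, Ddc and Gch1 to Th within each library (blue, undifferentiated; orange, dexamethasone-differentiated; 3 libraries per group). The Dbh to Th ratio dropped from 4.85 to 5.21 down to 0.08 to 0.31, and the Gch1 to Th ratio stayed between 2.91 and 3.62.

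Genes that feed or regulate these enzymes were taken from lists of 57 genes, of which 50 were tested. Of these 26 rose and 15 fell, 82.0% in all, close to the background of 78.9%, and their median log2 fold change was 0.22. Among 5 genes of BH4 feedback and salvage, 2 rose and 2 fell (median log2 fold change 0.01). Gchfr, whose product binds GTP cyclohydrolase I and inhibits it when BH4 is plentiful, rose 1.57-fold, from 15.2 ± 0.841 to 24.1 ± 1.20 CPM (SD, n = 3; edgeR adjusted p = 3.21e-06). The carbonyl reductase gene Cbr1 rose 1.57-fold and the aldose reductase gene Akr1b3 fell 2.19-fold, both enzymes that can reduce pterin intermediates in place of Spr. Pcbd2, the paralogue of Pcbd1, was not called (edgeR adjusted p = 0.964), with 8.47 ± 2.90 CPM in undifferentiated and 8.57 ± 0.860 CPM in differentiated cells (SD, n = 3).

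Of 7 genes for other BH4-dependent enzymes, 3 were tested, 2 of which rose (66.7% called, beside 78.9% of all genes). The neuronal nitric oxide synthase gene Nos1 was at 195 ± 9.14 and 239 ± 25.9 CPM (SD, n = 3), 1.23-fold higher. The endothelial form, Nos3, rose 3.64-fold from 0.450 ± 0.302 CPM (SD, n = 3), a level that rests on 10 reads. Without undifferentiated replicate 2 the rise of Nos3 was 5.62-fold. Tph1, the tryptophan hydroxylase of peripheral serotonin synthesis, had 30 reads in undifferentiated and none in differentiated cells. Scaled to all counts, the 30 reads were 10.8 times a floor of 3 reads over the differentiated group, leaving out counting error. Nos2 and Agmo had at most 1 read in all.

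Cofactor and substrate genes of the other steps moved as follows, where 40.3% of all genes tested were called higher and 38.6% lower. Of 4 genes around pyridoxal phosphate, the cofactor of DDC, 3 rose and none fell, among them Pdxk, whose product phosphorylates the vitamin, 1.31-fold and Pdxdc1 1.17-fold higher. For copper and ascorbate, which DBH needs, 4 of 6 tested genes rose and 1 fell (median log2 fold change 0.46). Cyb561, the vesicle cytochrome that regenerates ascorbate beside DBH, rose 3.00-fold, the copper importer gene Slc31a1 1.35-fold and the ascorbate transporter gene Slc23a2 1.41-fold, while the copper chaperone gene Atox1 fell 1.83-fold. Around S-adenosylmethionine, the methyl donor of PNMT, 3 of 5 tested genes fell and none rose, namely Adk 2.32-fold, Ahcy 1.39-fold and Mat2b 1.20-fold lower. Mat2a and Ahcyl1 of that list were not called (edgeR adjusted p = 0.448 and 0.738). All 6 transporter genes for tyrosine and other large neutral amino acids were called, 4 higher and 2 lower. Slc3a2 and Slc7a5, the subunits of the main carrier, rose 2.05-fold and 1.38-fold and Slc43a2 4.65-fold, while Slc43a1 and Slc16a10 fell 2.66-fold and 2.02-fold.

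Of 21 tested genes for kinases, phosphatases and 14-3-3 proteins that act on or bind tyrosine hydroxylase, 11 rose and 7 fell (median log2 fold change 0.13). Those called were 85.7%, beside 78.9% of all genes. Mapk3, which encodes the kinase ERK1, rose 2.78-fold, the ribosomal S6 kinase gene Rps6ka2 2.31-fold and the 14-3-3 gene Ywhag 1.82-fold. The 14-3-3 genes Ywhae and Ywhaz fell 1.94-fold and 1.42-fold and Rps6ka1 1.52-fold. The edgeR adjusted p-values of these 6 genes ran from 1.82e-17 to 3.6e-10.

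**Figure D5:**
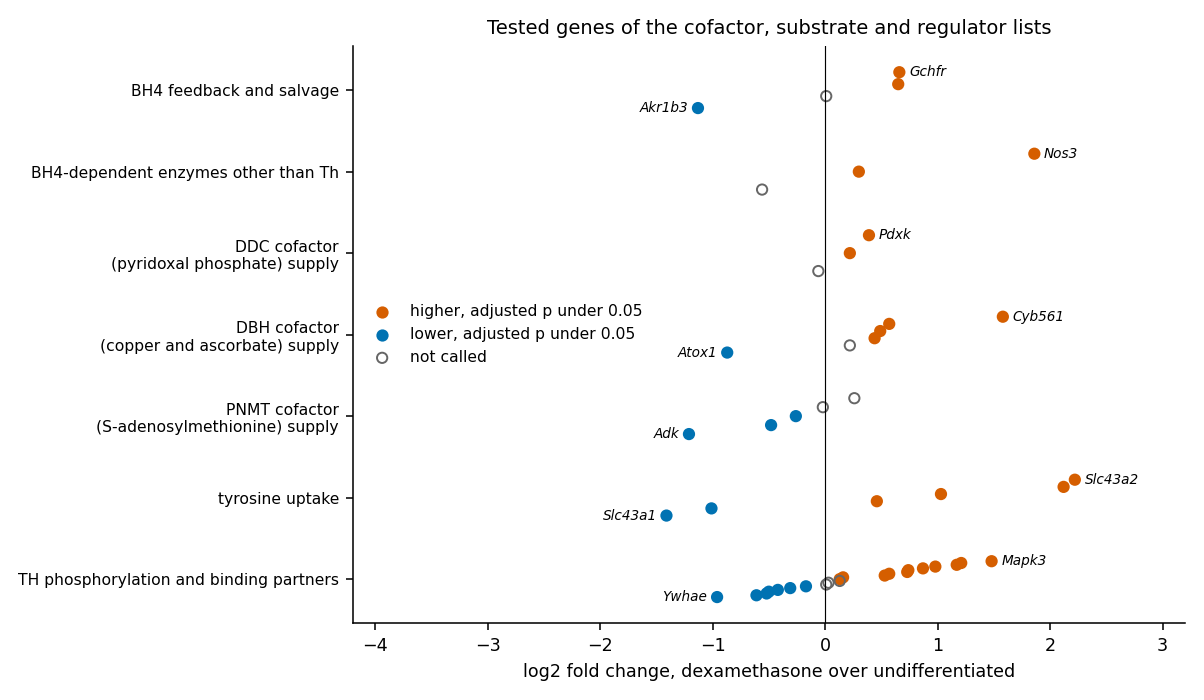
log2 fold change of dexamethasone-differentiated over undifferentiated cells for tested genes of 7 lists around the pathway, without the genes not reported here; filled points are called (orange higher, blue lower), open points are not, and the lowest and highest gene of a list are named where called. Genes of the PNMT cofactor list that were called lie below 0, those of the DDC cofactor list above 0, and the other lists with several called genes on either side, except the BH4-dependent enzymes, whose 2 called genes rose. Of all genes tested, 40.3% were called higher and 38.6% lower, and the lists are short.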

How the data were processed

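The 6 libraries were made from total RNA with an mRNA selection kit, per the labels' protocols. The authors deposited 1 table of raw read counts per library, not normalized. Per the file headers, reads were assigned to genes by featureCounts 1.6.4 from the exons of Ensembl release 96 (GRCm38), with strand setting 1 and no option for reads with several alignments or several genes. HISAT2 2.2.0, Trim Galore 0.6.4, FastQC 0.11.9, DESeq2 and Subread 1.6.4 are named, without their roles, per the submitters' processing notes.

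Names and principal transcript lengths came from GENCODE M21, in which all 55536 identifiers had the same coordinates. The merged-exon lengths used for RPKM were those deposited with the counts. Genes were filtered with filterByExpr (minimum count 10, minimum total 15), normalized by TMM and fitted in edgeR 4.0.16 under R 4.3.3 (glmQLFit and glmQLFTest, group as the only term); 12664 genes were tested and p-values adjusted over all of them. The standard error was the log2 fold change divided by the square root of F. The script was tested on simulated data. The members and lists were chosen with earlier results of these data known. From each list up to 3 called genes per direction with the smallest adjusted p were named, with all members, their nearest tested neighbours and the 3 genes most like Th, Dbh and Gch1; others were named beside them as values. A few genes and 1 motif are not reported here. The alternatives were RLE and upper quartile scaling, library totals, DESeq2 1.42.0, limma voom (3.58.1), no filter, a filter of 1 CPM in 3 libraries, a replicate block, protein-coding genes alone and each library left out.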

Additional observations from a re-analysis of the deposited data

How the results depend on the processing

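The 8 tested members kept their direction and their side of the threshold under all 15 alternatives. The log2 fold change ranged from 0.93 to 1.19 for Th, -3.20 to -2.68 for Ddc, -3.74 to -3.60 for Dbh, 1.46 to 1.61 for Gch1, -0.24 to -0.04 for Pts, -0.71 to -0.54 for Spr, 0.64 to 0.79 for Qdpr and 0.24 to 0.42 for Pcbd1, whose adjusted p reached 0.0376. Library totals in place of TMM factors moved the log2 fold changes of all genes up by a median of 0.13, and the share of calls that were higher from 51.1% to 58.0%. Leaving out 1 library at a time moved the difference of the log2 ratio of Ddc to Th between -4.44 and -3.82. The order of levels per length had 10 of 18 positions in common with that by principal transcript length, which differs from merged exons by construction. Same-numbered libraries did not deviate together (r of -0.09, 0.04 and -0.07, beside -0.04 to 0.11 for differently numbered ones). No pairing by number was seen, though such a check cannot exclude one. With the replicate block 9820 genes were called in place of 9997, and the same 4 members higher and 3 lower. Of 852 values of 57 other named genes, 839 kept direction and call. Pcbd2, at 0.01, became -0.01 with protein-coding genes alone and -0.08, -0.16 and -0.08 without undifferentiated replicate 2, undifferentiated replicate 3 and dexamethasone replicate 1, and 0.31 without undifferentiated replicate 1. Depth limits Pnmt and Ddc, whose low levels rest on 7 and 12 reads.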

Other observations

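The nearest tested genes on either side of each member, 18 in all, were looked at beside it. Of these, 15 (83.3%) were called, beside 78.9% of all genes, 6 higher and 9 lower. Of the 12 pairs in which member and neighbour were both called, 6 moved the same way. With neighbours taken from the strand of the member alone, 13 of 18 (72.2%) were called, 8 higher and 5 lower, and 7 of 11 pairs moved the same way. Both neighbours of Ddc fell with it. Fignl1, a recombination ATPase gene 5.14 kb away, fell 12.6-fold, from 280 ± 8.62 to 22.1 ± 1.16 CPM, and Grb10, an imprinted adaptor gene 32.4 kb away, fell from 6.28 ± 0.827 to 0.844 ± 0.348 CPM (SD, n = 3). Dbh, which fell, lies between Slc2a6 and Sardh, which rose 3.40-fold and 1.38-fold. Gch1 lies between Samd4, 3.47-fold higher, and Wdhd1, a replication gene that was 8.96-fold lower. Pgap3, which ends 0.496 kb from Pnmt on the other strand, rose 1.87-fold, and Stard3 on its other side was not called (edgeR adjusted p = 0.25), but was called higher with library totals (log2 fold change 0.29, edgeR adjusted p = 0.0474) and without dexamethasone replicate 1 (0.29, edgeR adjusted p = 0.0412). Beside Th, R74862 rose 1.93-fold and Mrpl23, 352 kb away, was called lower at 1.21-fold; under 5 alternatives Mrpl23 was not called (log2 fold changes of -0.28 to -0.15). Around the recycling genes, Sgpl1 next to Pcbd1 rose 2.42-fold, while Unc5b on its other side and Lap3 next to Qdpr fell 1.75-fold and 1.82-fold.

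Genes whose log2 CPM values, centred on their mean, lay nearest to those of a member over the 6 libraries were named for Th, Dbh and Gch1. With 2 groups this distance follows the size of the change above all. Nearest to Th were Cyth1, Stx2 and Orai1 (distances 0.0828, 0.141 and 0.157, in log2 units). Nearest to Dbh were the kinetochore gene Ndc80, the mitotic gene Cdca2 and Fignl1, the neighbour of Ddc (distances 0.133, 0.149 and 0.183), which fell 13.5-fold, 14.7-fold and 12.6-fold. Nearest to Gch1 were Mapk3, the lysosomal gene Ctsa and Zfp467 (distances 0.0278, 0.0777 and 0.0791), which rose 2.78-fold, 2.81-fold and 2.72-fold.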
